A study of Mus musculus with 186 samples.

Results

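Skin taken at day 21 from mice injected with bleomycin and then dosed with SB525334 was compared, gene by gene, with skin of PBS-injected mice of the same day. The comparison holds 17 of the 186 libraries of the series, 9 with bleomycin and SB525334 and 8 with PBS and vehicle, chosen by their labels alone. The mice were female C57BL/6, about 12 weeks old. Bleomycin at 10 mg/kg/day, or PBS, was injected subcutaneously into shaved skin between the shoulder blades 5 times a week for 2 weeks. SB525334 at 30 mpk, or its vehicle, was given by mouth 2 times a day from day 12. A punch biopsy of the injected skin was taken at day 21, and total RNA was depleted of ribosomal RNA before strand-specific library preparation. Other skin libraries are set beside these: 7 from mice given bleomycin and vehicle at day 21, 8 with bleomycin and SB525334 against 7 with PBS and vehicle at day 28, and 8 with bleomycin against 8 with PBS at day 14, whose labels name no oral dosing. No PBS group received SB525334, so bleomycin and the inhibitor differ together between the main groups and cannot be told apart in the difference. The labels do not say that each library is a separate mouse; if some are not, the p-values measure technical spread only.

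Bleomycin breaks DNA and, injected repeatedly into mouse skin, produces inflammation, loss of dermal fat and a thickened collagen-rich dermis, which is used as a model of scleroderma. Transforming growth factor beta (TGF-β) is released from a latent complex in the matrix and signals through a type II receptor and the type I receptor ALK5, encoded by Tgfbr1, which phosphorylates SMAD2 and SMAD3. These drive collagen and other matrix genes in fibroblasts, restrain growth of keratinocytes and dampen many immune cells. SB525334 is a small molecule that blocks the kinase of ALK5, so the comparison asks what of the injury is still seen while that kinase is inhibited.

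Totals ranged from 17929303 to 27756982 expected counts in the SB525334 libraries and from 15487286 to 43070659 in the PBS libraries. Levels are given in CPM, counts per 1000000 counts of the library. The tissue label held in both groups: Krt14, a keratin of basal epidermis, ranged from 2243 to 8523 CPM (median 3866) with SB525334 and from 1378 to 2189 CPM (median 1699) with PBS. Low levels of lung transcripts were present in both: Sftpc, the surfactant protein C gene of lung epithelium, was at 2 to 44.2 CPM of the unscaled library total with SB525334 and 1.57 to 59.5 with PBS. Lung libraries are in the same series, and the source of these counts was not tested. Hair genes set the PBS group apart within itself. The summed level of 47 hair keratin and shaft genes was 68140, 63990 and 61200 CPM in PBS replicates 1, 2 and 4, and ranged from 55.05 to 7125 CPM in the other 5. In the SB525334 libraries the same sum ranged from 44.77 to 718.2 CPM and with vehicle from 74.31 to 4595 CPM. The 3 PBS libraries above 10000 CPM are called hair-rich here, a threshold chosen after the values were seen, and gene list counts are given with and without them. PBS skin of day 21 also held little skeletal muscle RNA. Its 25 muscle genes summed to between 47.95 and 9988 CPM, against 10100 to 29450 CPM in PBS skin of day 14.

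Of 15825 genes tested, 8312 differed from PBS with SB525334 (52.5%; edgeR's quasi-likelihood F test, Benjamini-Hochberg adjusted p below 0.05), 3784 higher (23.9%) and 4528 lower (28.6%). At least 2-fold differences were called for 1238 genes higher (7.82%) and 1047 lower (6.62%). In 869 genes (5.49%) every SB525334 library lay above every PBS library, and in 508 (3.21%) every one lay below. The sign was the same on both sequencing plates for 98.4% of the called genes. Without the 3 hair-rich PBS libraries 6462 of 15919 genes were called, 2967 higher (18.6%) and 3495 lower (22%). Of the 3784 genes called higher with all libraries, 2485 (65.7%) were still called higher, and of the 4528 called lower, 2687 (59.3%) were still called lower. The shares of all genes, 23.9% higher and 28.6% lower, are the background for every list count against PBS below. Without the hair-rich libraries that background is 18.6% and 22%. A list near these shares does not stand out from all genes.

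In vehicle-treated bleomycin skin 6518 genes differed from the same PBS libraries (41.2%), 3191 higher (20.2%) and 3327 lower (21%). SB525334 against vehicle within bleomycin skin, which tests whether a gene stood at another distance from PBS with the inhibitor, called 1872 genes (11.8%), 919 higher (5.81%) and 953 lower (6.02%). Of these, 73 (0.461%) and 135 (0.853%) were at least 2-fold higher and lower. The shares 5.81% and 6.02% are the background for list counts against vehicle below. For vehicle against PBS that background is 20.2% and 21%. Injury at the end of the injections was read in separate libraries. At day 14 bleomycin skin had 9427 genes past the threshold (59.6%), 4981 genes above PBS (31.5%) and 4446 below (28.1%). Of the 4981, 2267 were also higher with SB525334 at day 21, which is 45.5% of the day 14 list and 59.9% of the SB525334 list, and 463 were lower. Of the 4446, 2232 were also lower, 50.2% and 49.3% of the respective lists, and 235 were higher. With vehicle 32.2% of the 4981 were higher than PBS and 29.1% of the 4446 lower. Genes that differed between SB525334 and vehicle mostly leaned the way day 14 had gone. Among the 4981, 658 were higher and 14 lower with SB525334 than with vehicle, and among the 4446, 30 were higher and 750 lower; the 658 are 13.2% of the day 14 list and 71.6% of all genes higher with SB525334 than with vehicle, and the 750 are 16.9% and 78.7% of the corresponding lists.

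**Figure D1:**
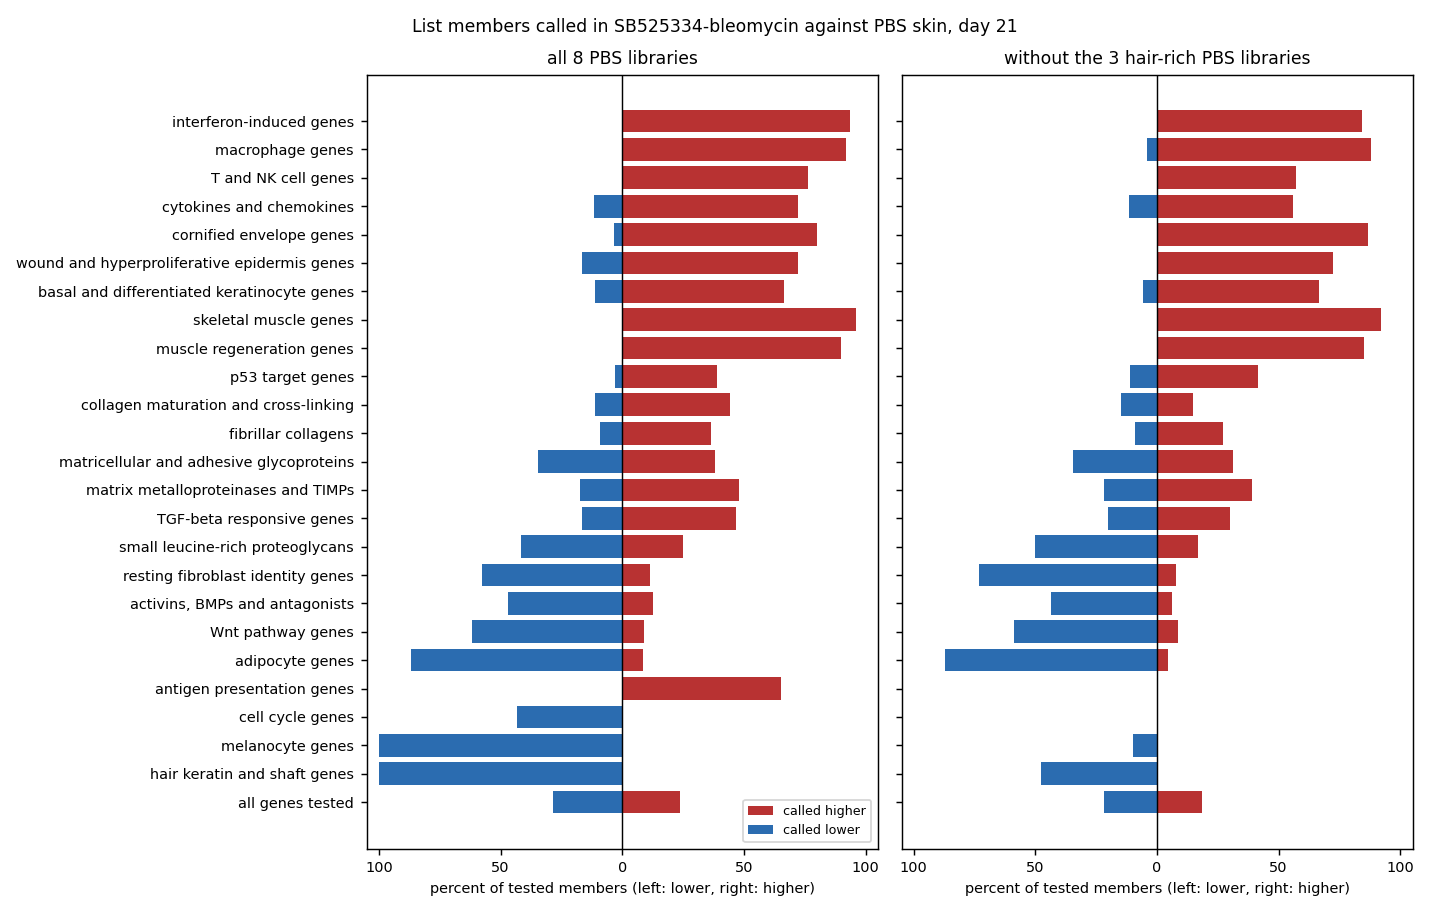
Percent of the tested members of each gene list called higher (red, right) or lower (blue, left) in SB525334-bleomycin against PBS skin of day 21, with all 8 PBS libraries and without the 3 hair-rich ones; the lowest row is all genes tested. Interferon and macrophage bars are long in both panels (30 and 27 of 32, 23 and 22 of 25 higher), whereas the cell cycle and antigen presentation bars vanish in the right panel.

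Interferon-induced genes stayed high under the inhibitor. Type I and type II interferons act through cell surface receptors to induce antiviral enzymes and sensors. Of 32 tested members of the list, 30 were higher than PBS with SB525334 and none lower, against 23.9% and 28.6% of all genes, with a median log2 fold change of 1.67 beside -0.04 over all genes. In 20 of the 32 every SB525334 library lay above every PBS library, against 5.49% of all genes. With vehicle 31 were higher (median 1.84), and between SB525334 and vehicle 1 was lower, against 6.02% of all genes. Without the hair-rich PBS libraries 27 were still higher (median 1.26). Many of these genes carry an interferon-stimulated response element in their promoter. The motif, GAAA followed after any 2 bases by a further GAAA, searched on both strands in the 250 bases before the start, was found in 12 of 23 interferon genes with a promoter in the table (52.2%), in 418 of 12165 tested genes (3.44%), in 5.07% of those higher with SB525334 and in 2.41% of those lower. Stretches from 4 promoters are shown, 5′ to 3′ on the gene's strand (RefSeq, GRCm38.p6), with the matched letters in capitals, because they let the match be read in the promoters of this list. A match describes letters, not a bound site. Oas3 and Oas1a are among the named genes; Ifit1 and Isg15 were added after their values were seen, for their repeated match.
Oas3, chr5:120777700-120777759, minus strand: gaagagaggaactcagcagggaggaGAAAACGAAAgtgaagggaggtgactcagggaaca
Oas1a, chr5:120907526-120907564, minus strand: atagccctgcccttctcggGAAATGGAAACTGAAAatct
Ifit1, chr19:34640779-34640838, plus strand: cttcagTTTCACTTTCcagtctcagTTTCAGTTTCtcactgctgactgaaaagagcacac
Isg15, chr4:156200850-156200909, minus strand: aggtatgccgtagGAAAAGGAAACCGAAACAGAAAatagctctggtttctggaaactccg

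Oas3, an enzyme that senses double-stranded RNA, lay at 22.2 to 71.9 CPM (median 29.8) with SB525334, at 20.4 to 106 CPM (median 22.9) with vehicle and at 1.69 to 10.6 CPM (median 4.73) with PBS. All 9 SB525334 libraries exceeded all 8 PBS libraries, and the lowest PBS values were those of the hair-rich libraries. The log2 fold change against PBS was 2.80 ± 0.39 (SE, adjusted p = 9.01e-09) with SB525334 and 2.76 ± 0.41 (adjusted p = 1.06e-07) with vehicle. SB525334 and vehicle differed by 0.04 ± 0.37 (adjusted p = 0.965). Oas1a, of the same family and with near-identical copies beside it that share reads, rose by 2.22 ± 0.28 (adjusted p = 2.72e-10).

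Most fibrillar collagens were lower with SB525334 than with vehicle. These form the tensile fibres of the dermis. Of 11 members, 4 were higher and 1 lower than PBS with SB525334 (median 0.27), against 23.9% and 28.6% of all genes. The other 6 were not called, as were 7513 of all 15825 genes. With vehicle 9 were higher and 1 lower (median 0.99), against 20.2% and 21% of all genes. Without the hair-rich PBS libraries the counts were 3 and 1 with SB525334 and 6 and 0 with vehicle. The 4 higher with SB525334 became 2 in a fit of only the groups compared, 2 with limma-trend and 1 on plate 1 alone. Between SB525334 and vehicle 7 of 11 were lower and none higher, against 6.02% of all genes lower. The 11 genes together summed to between 6624 and 16480 CPM (median 12790) with SB525334, 10700 and 26940 (median 18230) with vehicle, and 6623 and 17670 (median 9186) with PBS. Without the hair-rich libraries the PBS median was 12650 CPM. Bulk RNA cannot tell fewer cells of a type from less RNA per cell, here or in any result below.

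Col1a1, which encodes one chain of type I collagen (GRCm38 chr11:94936224-94953042, plus strand), lay at 554 to 1467 CPM (median 1158) with SB525334, at 1014 to 2644 CPM (median 2215) with vehicle and at 503 to 1827 CPM (median 833) with PBS. The SB525334 range sat inside the PBS range, whereas all 7 vehicle libraries were above the PBS median. Its log2 fold change against PBS was 0.03 ± 0.26 (adjusted p = 0.942) with SB525334 and 0.95 ± 0.27 (adjusted p = 0.00354) with vehicle, and SB525334 against vehicle gave -0.93 ± 0.27 (adjusted p = 0.0124). Without the hair-rich PBS libraries the vehicle value was 0.65 (adjusted p = 0.121). Col3a1, the chain of type III collagen, was at 3939 to 10369.6 CPM (median 7306), 6014 to 16603 CPM (median 10621) and 3470.4 to 9990.3 CPM (median 5138) in the same order of groups. Its values overlapped between all groups, with 0.27 ± 0.23 (adjusted p = 0.318) against PBS with SB525334 and -0.72 ± 0.23 (adjusted p = 0.0293) against vehicle, where a fit of only these groups gave an adjusted p of 0.0525. Col24a1, a minor fibrillar collagen, was both above PBS, by 1.17 ± 0.27 (adjusted p = 0.000199) and below vehicle, at -1.02 ± 0.27 (adjusted p = 0.00613). At day 14 Col1a1 and Col3a1 were below PBS, at -1.14 ± 0.27 (adjusted p = 0.000186) and -1.15 ± 0.24 (adjusted p = 2.27e-05).

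Genes that modify, cross-link and assemble collagen were more often higher than lower against PBS with all libraries, but not without the hair-rich ones. Of 27 tested, 12 were higher and 3 lower than PBS with SB525334 (median 0.23), against 23.9% and 28.6% of all genes. With vehicle 19 were higher and 1 lower (median 0.58), and 6 were lower with SB525334 than with vehicle, against 6.02% of all genes. Without the hair-rich PBS libraries the count against PBS became 4 higher and 4 lower, beside 18.6% and 22% of all genes. On plate 2 alone 6 were higher, and 7 were with a replicate block and with limma voom. Loxl3, a lysyl oxidase that cross-links collagen, lay at 20.4 to 52.3 CPM (median 36) with SB525334 and at 5.53 to 13.2 CPM (median 8.03) with PBS. The groups did not overlap, the change was 1.95 ± 0.24 (adjusted p = 2.46e-10), and against vehicle it was -0.38 ± 0.23 (adjusted p = 0.318). P4ha3, a prolyl hydroxylase subunit, rose 5.22-fold and Lox, which oxidises lysines of collagen, rose 3.33-fold. Pcolce2, an enhancer of procollagen processing, went the other way, from 32 to 119.7 CPM (median 77.7) with PBS to 9.5 to 23.3 CPM (median 17.5) with SB525334, every SB525334 library below every PBS library, a change of -2.17 ± 0.27 (adjusted p = 2.44e-10).

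**Figure D2:**
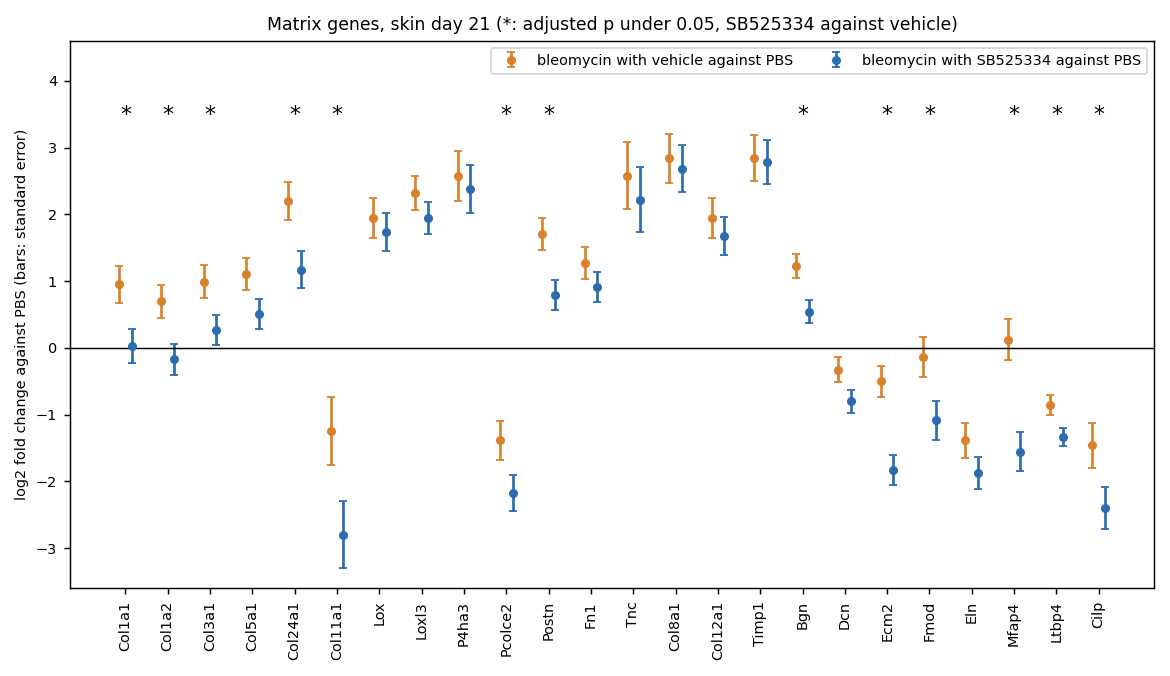
Log2 fold change against PBS at day 21 (vertical axis) of 24 matrix genes with vehicle (orange) and SB525334 (blue); points are edgeR estimates, bars their standard errors, and an asterisk marks an adjusted p under 0.05 between SB525334 and vehicle. Col1a1 sits at 0.03 with SB525334 and 0.95 with vehicle, while Timp1 sits at 2.79 and 2.84.

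Matricellular and adhesive glycoproteins, which bind cells to the matrix and are laid down in repair, split evenly. Of 29, 11 were higher and 10 lower than PBS (median 0.23), against 23.9% and 28.6% of all genes. Without the hair-rich libraries it was 9 and 10. With SB525334, 9 were lower than with vehicle, against 6.02% of all genes. Postn, periostin of activated fibroblasts, was at 999.9 to 3389.5 CPM (median 2172) with SB525334, 886 to 7426 CPM (median 3955) with vehicle and 671 to 2149 CPM (median 1169) with PBS. It rose by 0.79 ± 0.23 against PBS (adjusted p = 0.0024), was lower than with vehicle, at -0.93 ± 0.23 (adjusted p = 0.0035; 0.0628 in a fit of only these groups), and without the hair-rich libraries stood 0.59 ± 0.26 from PBS (adjusted p = 0.0618). Tnc, tenascin C, was at 285 to 1213 CPM (median 1001) with SB525334 and 41.9 to 347 CPM (median 151) with PBS, a rise of 2.22 ± 0.48 (adjusted p = 7.14e-05; 3.02 ± 0.60 without the hair-rich libraries), with -0.36 ± 0.47 (adjusted p = 0.689) against vehicle. Fn1, fibronectin, rose by 0.91 ± 0.22 (adjusted p = 0.000443). Cilp, cartilage intermediate layer protein, fell from 104 to 397 CPM (median 249) to 15.3 to 83.9 CPM (median 45.6), with no overlap (-2.40 ± 0.31, adjusted p = 1.12e-09).

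Small leucine-rich proteoglycans, which bind collagen and set fibril width, were mostly lower with SB525334 than with vehicle. Of 12 tested, 3 were higher and 5 lower than PBS with SB525334 (median -0.45), against 23.9% and 28.6% of all genes. With vehicle 7 were higher and none lower (median 0.55), against 20.2% and 21%. Between SB525334 and vehicle 8 of 12 were lower with SB525334, against 6.02%. Without the hair-rich PBS libraries 2 were higher and 6 lower with SB525334, and 4 higher and 3 lower with vehicle. Ecm2 lay at 13.8 to 36 CPM (median 23.8) with SB525334, 37.1 to 85.5 CPM (median 57.3) with vehicle and 37.4 to 152 CPM (median 83.7) with PBS. The 9 SB525334 libraries were below all others of both groups. Its change was -1.83 ± 0.22 against PBS (adjusted p = 1.68e-10) and -1.34 ± 0.23 against vehicle (adjusted p = 3.82e-05). Dcn, decorin, fell by 0.80 on the log2 scale (adjusted p = 8.47e-05), and Bgn, biglycan, rose by 0.54 ± 0.17 (adjusted p = 0.00491) while lying -0.69 ± 0.17 from vehicle (adjusted p = 0.00379).

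Elastic fibre genes showed 4 of 14 higher and 5 lower than PBS, near the 23.9% and 28.6% of all genes. Without the hair-rich libraries 3 were higher and 7 lower, against 18.6% and 22% of all genes. Eln, elastin, lay at 26.7 to 65.9 CPM (median 49.6) with SB525334 against 64.4 to 411 CPM (median 146), with 8 of 9 libraries below the lowest PBS library and a change of -1.87 ± 0.24 (adjusted p = 1.15e-09). Mfap4, a microfibril-associated protein, was at 9.31 to 42.2 CPM (median 26.1) with SB525334, 50.4 to 111 CPM (median 91.9) with vehicle and 40.4 to 136 CPM (median 80.1) with PBS. Vehicle and PBS overlapped widely (0.12 ± 0.30, adjusted p = 0.774) and SB525334 was below vehicle in every library, at -1.67 ± 0.30 (adjusted p = 6.43e-05). Basement membrane genes, 4 higher and 12 lower of 23, leaned down against PBS (median -0.35; 3 and 10 without the hair-rich libraries).

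Within the TGF-β pathway itself, 9 of 18 ligands, receptors and latent binding proteins were higher and 2 lower than PBS (median 0.23), against 23.9% and 28.6% of all genes. Without the hair-rich libraries 6 were higher and 4 lower, against 18.6% and 22%. Tgfbr1, the target of the compound, was at 89 to 123 CPM (median 102) with SB525334, 80.8 to 126 CPM (median 105) with vehicle and 76 to 96.3 CPM (median 84.1) with PBS. It rose by 0.26 ± 0.07 (adjusted p = 0.000447), with 7 of 9 libraries above the highest PBS library, and differed from vehicle by -0.01 ± 0.07 (adjusted p = 0.953). Lrrc32, which tethers latent TGF-β to the cell surface, rose 2.32-fold. Itgb8, whose integrin activates latent TGF-β, was at 101 to 166 CPM (median 125) against 79 to 98.7 CPM (median 93.8) without overlap, 0.54 ± 0.10 above PBS (adjusted p = 3.62e-06) and 0.40 ± 0.10 above vehicle (adjusted p = 0.00501). Ltbp3, a latent binding protein of the matrix, was at 19.5 to 29.8 CPM (median 26.1) with SB525334, 25.1 to 51.4 CPM (median 34.2) with vehicle and 39.9 to 79.9 CPM (median 57.7) with PBS. All SB525334 libraries were below all PBS libraries (-1.12 ± 0.13, adjusted p = 1.38e-11), and SB525334 against vehicle gave -0.47 ± 0.13 (adjusted p = 0.00963).

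Feedback inhibitors and known target genes gave no uniform picture. Of 14 SMADs and negative feedback genes, 2 were higher and 8 lower than PBS, against 23.9% and 28.6% of all genes. Without the hair-rich libraries 2 were higher and 4 lower, against 18.6% and 22%. With all libraries limma voom called 2 lower. edgeR called none between SB525334 and vehicle, with 3 at an unadjusted p under 0.05 and 1 called each by DESeq2, limma voom and limma-trend. Smad7, induced by TGF-β and an inhibitor of its receptor, was at 8.22 to 12.4 CPM (median 9.57) against 8.1 to 40.9 CPM (median 11), with the 3 hair-rich libraries at 34.2 to 40.9 CPM and the other 5 PBS libraries at 8.1 to 11.8 CPM. Its change of -0.99 ± 0.22 (adjusted p = 0.00011) became -0.09 ± 0.21 (adjusted p = 0.758) without the hair-rich libraries. Smad6, the inhibitor of BMP receptors, fell by 2.07 on the log2 scale with all libraries and stood at -1.08 ± 0.36 (adjusted p = 0.0116) without the hair-rich ones. Of 30 TGF-β responsive genes, 14 were higher and 5 lower than PBS (median 0.38). Against vehicle 1 was higher and 6 lower, beside 5.81% and 6.02% of all genes. Without the hair-rich libraries 9 were higher and 6 lower than PBS, and 8 were higher on plate 2 alone. Skil, a SMAD corepressor, rose by 0.67 ± 0.11 (adjusted p = 4.95e-07), and Acta2, smooth muscle actin, stood 0.05 ± 0.11 from PBS (adjusted p = 0.731).

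Genes of resting fibroblasts were mostly lower. Of 26 resting fibroblast identity genes, 3 were higher and 15 lower than PBS (median -0.61), beside 23.9% and 28.6% of all genes. With vehicle it was 4 and 10 (median -0.17), and 8 were lower with SB525334 than with vehicle, against 6.02% of all genes. Leaving out the hair-rich libraries gave 2 higher and 19 lower (median -0.85), and on plate 1 alone 8 were lower. Pi16, a marker of a fibroblast population found throughout connective tissue, was at 6.96 to 22.1 CPM (median 17.3) with SB525334, 8.12 to 111 CPM (median 20.8) with vehicle and 60.9 to 183 CPM (median 102) with PBS. No SB525334 library reached the lowest PBS library (-2.81 ± 0.33, adjusted p = 6.73e-11), and against vehicle the change was -1.06 ± 0.33 (adjusted p = 0.0238), which limma voom put at -0.48 (adjusted p = 0.298). Scara5 fell 6.15-fold and Dpp4, a surface peptidase of the same cells, 2.86-fold, both without overlap. Crabp1, a retinoic acid binding protein, rose instead, from 4.84 to 18.4 CPM (median 11.8) to 40.1 to 119 CPM (median 75.1), 7-fold (adjusted p = 5.1e-13), and Dlk1, an inhibitor of fat cell differentiation, rose 14.2-fold from low levels.

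Of 20 activated fibroblast genes, 11 were higher and 5 lower than PBS (median 0.62), against 23.9% and 28.6% of all genes. Without the hair-rich libraries it was 8 and 6. With SB525334, 1 was higher and 6 lower than with vehicle, against 5.81% and 6.02% of all genes. Col8a1, a short-chain collagen, was at 40.9 to 153 CPM (median 99.8) with SB525334, 32.5 to 175 CPM (median 102) with vehicle and 6.24 to 29.4 CPM (median 13.4) with PBS. The first and last group did not overlap (2.69 ± 0.35, adjusted p = 1.6e-09) and the first pair did (-0.16 ± 0.34, adjusted p = 0.824). Fap, a serine protease of the fibroblast surface, was lower than in both other groups, at 7.77 to 17.3 CPM (median 11.1) with SB525334, 17 to 26.4 CPM (median 23.2) with vehicle and 22.4 to 39.6 CPM (median 31.5) with PBS. Its change was -1.39 ± 0.15 against PBS (adjusted p = 6.83e-12) and -0.94 ± 0.16 against vehicle (adjusted p = 2.63e-05). Pdgfrl, a receptor-like gene, behaved alike in direction, at 1.66 to 3.91 CPM (median 2.07), 4.37 to 7.99 CPM (median 6.72) and 4.61 to 14.1 CPM (median 8.93), with -1.94 ± 0.19 (adjusted p = 4.53e-14) and -1.49 ± 0.19 (adjusted p = 1.24e-07).

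**Figure D3:**
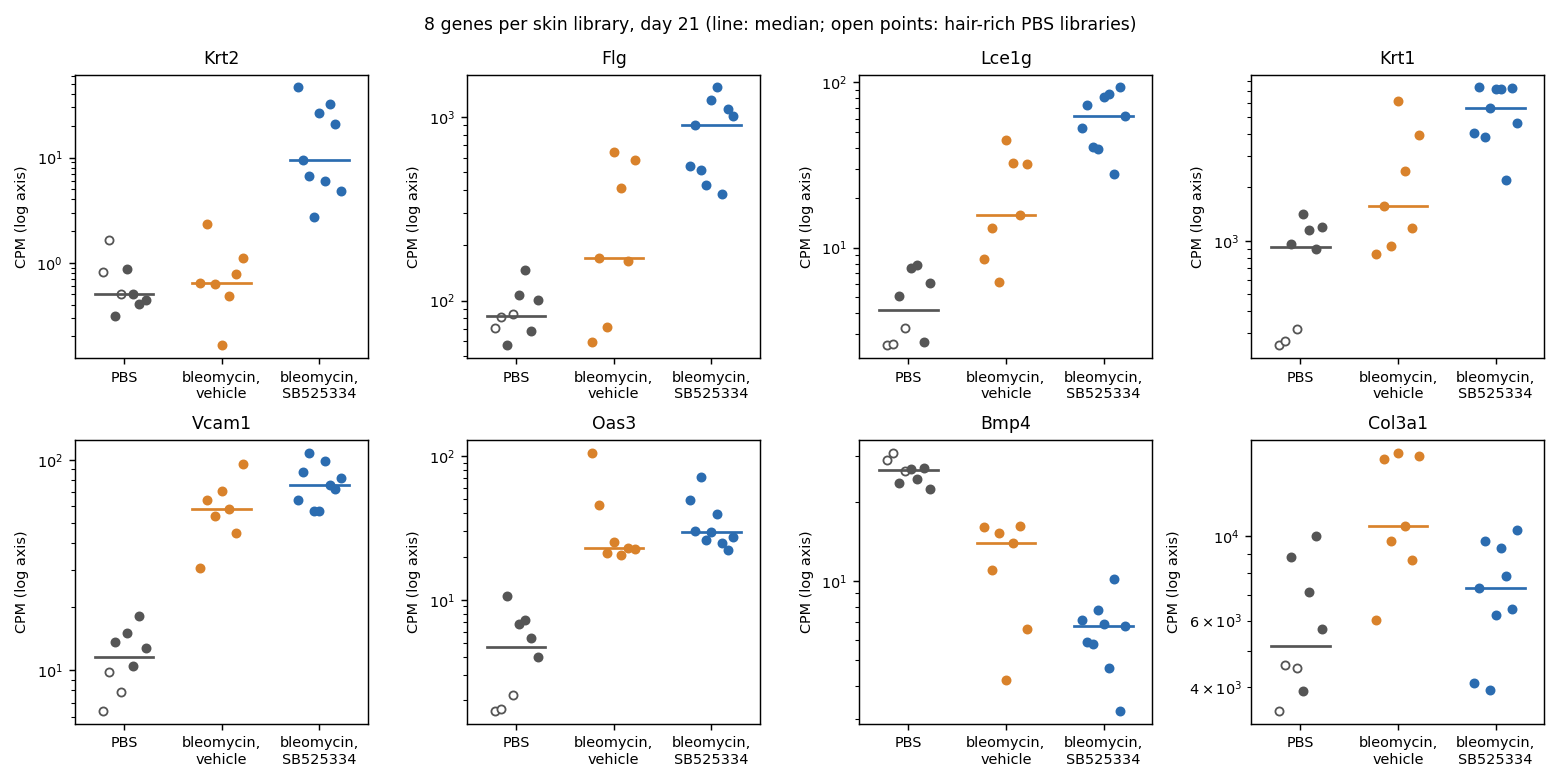
CPM on a log axis of 8 genes in each skin library of day 21; each point is a library, the line is the group's median and open points are the 3 hair-rich PBS libraries. Krt2 is high in SB525334 libraries, Vcam1 and Oas3 in both bleomycin groups, Bmp4 is low in both, and the 3 groups overlap for Col3a1.

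Most Wnt pathway genes were lower than PBS, and activin and BMP genes were more often lower than higher. Of 34 Wnt pathway genes, 3 were higher and 21 lower than PBS (median -1.01), against 23.9% and 28.6% of all genes. With vehicle it was 1 and 18 (median -0.64), against 20.2% and 21% of all genes. With SB525334, 10 were lower and 3 higher than with vehicle, against 6.02% and 5.81% of all genes. Without the hair-rich libraries 3 were higher and 20 lower than PBS with SB525334. Wnt5b, a ligand, lay at 0.982 to 2.43 CPM (median 1.58) with SB525334, 1.61 to 4.35 CPM (median 3.47) with vehicle and 4.44 to 9.29 CPM (median 7.53) with PBS. Every SB525334 library was below every PBS library (-2.06 ± 0.16, adjusted p = 1.6e-17), and SB525334 also fell below vehicle (-0.88 ± 0.17, adjusted p = 0.000164). Notum, a secreted enzyme that inactivates Wnt ligands, fell 6.39-fold. Of 32 activin and BMP genes and their antagonists, 4 were higher and 15 lower than PBS (2 and 14 without the hair-rich libraries). Bmp4, a ligand, fell from 22.5 to 30.9 CPM (median 26.6) with PBS to 4.2 to 16.3 CPM (median 13.9) with vehicle and 3.21 to 10.2 CPM (median 6.77) with SB525334. SB525334 and PBS did not overlap (-2.01 ± 0.17, adjusted p = 4.72e-16), and SB525334 was also below vehicle (-0.85 ± 0.18, adjusted p = 0.000463). Id3, a direct target of BMP signals, fell by 1.52 on the log2 scale (adjusted p = 3.66e-13).

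Matrix proteases and their inhibitors were more often higher than lower. Of 23 genes, 11 were higher and 4 lower than PBS with SB525334 (median 0.31), against 23.9% and 28.6% of all genes. Without the hair-rich libraries it was 9 and 5. With vehicle 15 were higher and 1 lower than PBS, and 4 were lower with SB525334 than with vehicle, against 6.02% of all genes. Mmp13, a collagenase, was at 2.65 to 121 CPM (median 19.8) against 0.102 to 2.17 CPM (median 0.727), and each SB525334 library exceeded each PBS library although the SB525334 values themselves spread widely. It rose by 5.48 ± 0.75 (adjusted p = 3.86e-09). Mmp12, an elastase of macrophages, rose 4.75-fold. Timp1, an inhibitor of these proteases, was at 26.8 to 47.3 CPM (median 41.6) with SB525334, 18.3 to 93.2 CPM (median 25.6) with vehicle and 2.97 to 10.3 CPM (median 4.2) with PBS, without overlap of the first and last (2.79 ± 0.33, adjusted p = 6.29e-11) and with -0.06 ± 0.31 (adjusted p = 0.935) against vehicle. Timp3, another inhibitor, fell from 430.4 to 546 CPM (median 489) to 174 to 323 CPM (median 238), again without overlap (-0.99 ± 0.11, adjusted p = 1.18e-11).

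Macrophage genes were high in both bleomycin groups. Of 25, 23 were higher and none lower than PBS with SB525334 (median 1.40). In 16 every SB525334 library lay above every PBS library, against 5.49% of all genes. With vehicle 23 were higher and 1 lower (median 1.32). Between SB525334 and vehicle edgeR called none (2 at an unadjusted p under 0.05, none called by DESeq2 and limma-trend, 1 by limma voom). Leaving out the hair-rich libraries gave 22 higher and 1 lower. Aif1, a calcium-binding protein of macrophages, lay at 15 to 34.5 CPM (median 23.6) with SB525334, 14.9 to 32 CPM (median 22.7) with vehicle and 2.15 to 9.05 CPM (median 6.6) with PBS. The bleomycin groups overlapped with each other and not with PBS, at 2.07 ± 0.23 for SB525334 (adjusted p = 1.09e-11). Mrc1, the mannose receptor of resident and alternatively activated macrophages, rose by 1.23 ± 0.17 (adjusted p = 1.36e-08). Spp1, osteopontin, rose 6.37-fold and stood 0.01 ± 0.50 from vehicle (adjusted p = 0.997). Other members of their narrower lists went both ways. Of 19 resident dermal macrophage genes, Mrc1 among them, 6 were higher and 3 lower than PBS (6 and 5 without the hair-rich libraries). Of 23 lipid-associated macrophage genes, which include Spp1, 10 were higher and 6 lower (8 and 6 without those libraries). Of all genes 23.9% were higher and 28.6% lower.

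Most cytokine and chemokine genes and most T and NK cell genes were also higher than PBS. Of 43 cytokines and chemokines, 31 were higher and 5 lower than PBS (median 1.33; 24 and 5 without the hair-rich libraries). Cxcl5, which attracts neutrophils, was at 5.02 to 31.1 CPM (median 6.89) against 0 to 0.12 CPM (median 0.0482), with no overlap and a rise of 7.37 ± 0.98 (adjusted p = 2.17e-09; 8.27 ± 1.36 without the hair-rich libraries). Cxcl14, made by resting epidermis and fibroblasts, fell from 53.8 to 161 CPM (median 111) to 18.1 to 35.3 CPM (median 20.7), also with no overlap (-2.08 ± 0.19, adjusted p = 4.54e-15). Vcam1, an adhesion molecule for leukocytes, had the smallest p of any gene called higher. It lay at 56.8 to 108 CPM (median 76.2) with SB525334, 30.5 to 95.6 CPM (median 58.6) with vehicle and 6.4 to 18.1 CPM (median 11.6) with PBS, 6.71-fold above PBS (2.75 ± 0.20, adjusted p = 2.46e-18). Of 21 T and NK cell genes, 16 were higher and none lower (median 1.42; 12 and none without the hair-rich libraries). Cd4 rose 6.33-fold. Cd5, a receptor of T cells, was at 4.26 to 6.34 CPM (median 5.36) with SB525334, 2.18 to 3.63 CPM (median 2.76) with vehicle and 1.29 to 2.64 CPM (median 2.03) with PBS, above PBS by 1.42 ± 0.17 (adjusted p = 8.44e-11) and above vehicle by 0.85 ± 0.17 (adjusted p = 0.000359). Of 10 tested neutrophil genes, 7 were higher and 1 lower with and without the hair-rich libraries (median 3.18 with them), among them the chemokine receptor Cxcr2 (11.7-fold).

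**Figure D4:**
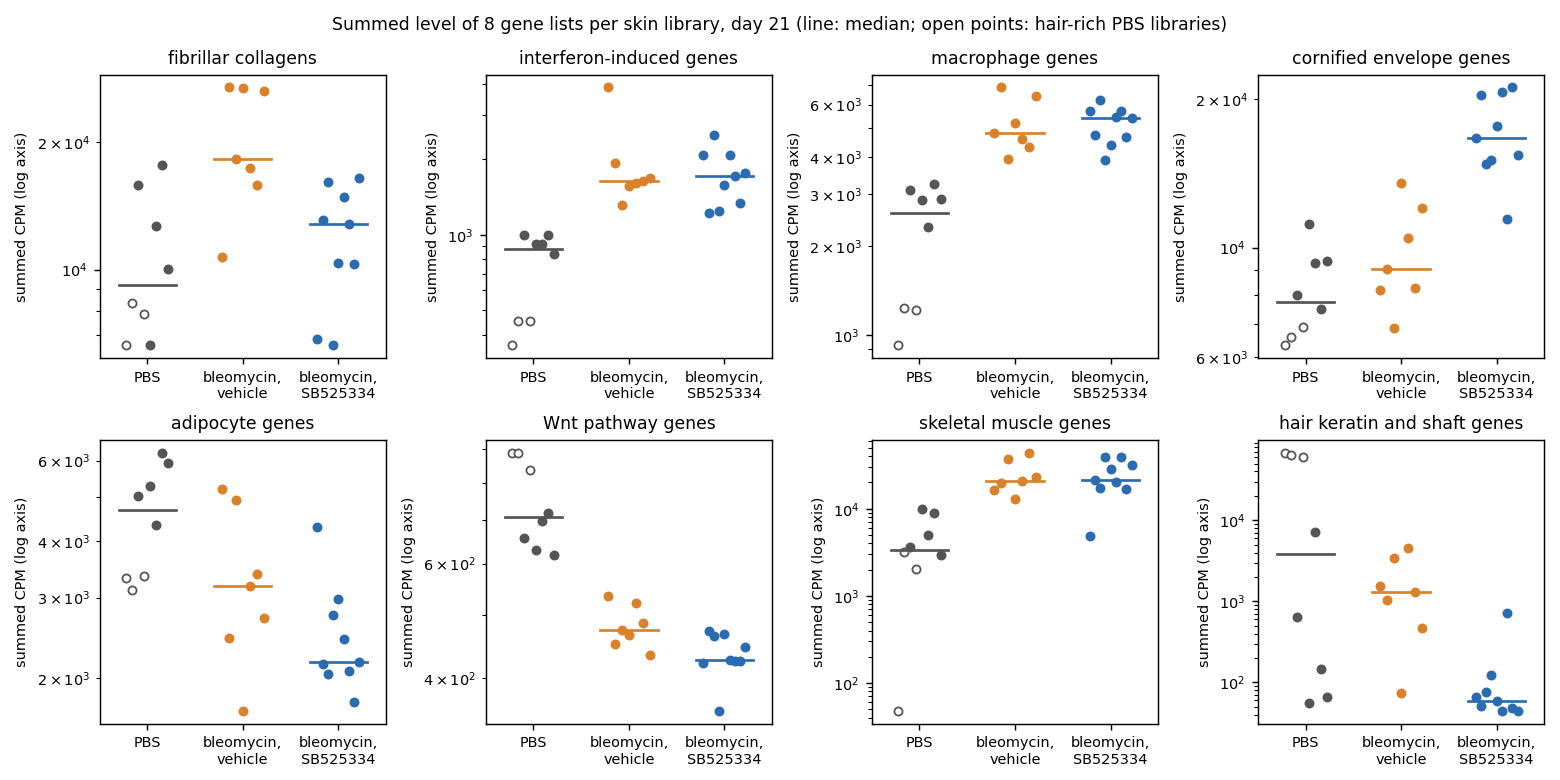
Summed CPM of 8 gene lists on a log axis in each skin library of day 21; each point is a library, the line is the group's median and open points are the hair-rich PBS libraries. Macrophage sums of the bleomycin groups lie above all PBS libraries, from 3900 CPM upward against at most 3247 CPM, and 3 PBS libraries reach 61200 to 68140 CPM for hair genes.

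Many epidermal genes were higher with SB525334 than in both other groups. Of 30 cornified envelope genes, which build the outer barrier of the skin, 24 were higher and 1 lower than PBS with SB525334 (median 1.43), 11 and 4 with vehicle (median 0.59), and 24 were higher and none lower with SB525334 than with vehicle, against 5.81% of all genes. Without the hair-rich libraries 26 were higher than PBS and none lower. Of 18 basal and differentiated keratinocyte genes, 12 were higher and 2 lower than PBS (12 and 1 without the hair-rich libraries), and 10 were higher and none lower than with vehicle. Their summed level was 26130 to 46510 CPM with SB525334 (median 38030), 18390 to 35850 with vehicle (median 21700) and 18130 to 28330 with PBS (median 23000), with overlap between the groups. Most resting fibroblast and adipocyte genes were lower at the same time, and how far the share of epidermis in the biopsies bears on these differences was not tested.

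Krt2, a keratin of the upper epidermis (GRCm38 chr15:101810689-101818169, minus strand), lay at 2.71 to 46.5 CPM (median 9.47) with SB525334, 0.164 to 2.34 CPM (median 0.647) with vehicle and 0.309 to 1.65 CPM (median 0.508) with PBS. Every SB525334 library exceeded every vehicle and PBS library, while vehicle and PBS overlapped. It was 24-fold above PBS (4.58 ± 0.47, adjusted p = 5.1e-13) and 4.23 ± 0.49 above vehicle (adjusted p = 4.68e-09), while vehicle stood 0.35 ± 0.48 from PBS (adjusted p = 0.575). Bleomycin skin of day 14, with no oral dosing named, stood -0.33 ± 0.49 from its PBS group (adjusted p = 0.584). At day 28 SB525334 skin was again above PBS, by 4.29 ± 0.51 (adjusted p = 6.73e-10). Flg, filaggrin, which aggregates keratin filaments, was at 383 to 1450.0 CPM (median 903) with SB525334, 59.7 to 648 CPM (median 171) with vehicle and 57 to 147 CPM (median 82.9) with PBS. It rose by 3.20 ± 0.37 against PBS without overlap (adjusted p = 2.49e-11) and by 1.60 ± 0.36 against vehicle (adjusted p = 0.00125). Krt1, of the suprabasal layers, rose 6.98-fold and Krt14, of the basal layer, 2.47-fold against PBS; Krt14 was 0.83 ± 0.21 above vehicle (adjusted p = 0.00422; 0.0958 in a fit of only these groups).

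Wound keratins and their companions were raised as well. Of 18 tested wound and hyperproliferative epidermis genes, 13 were higher and 3 lower than PBS with SB525334 (median 2.91). It was 13 and none without the hair-rich libraries, and 9 and 3 with vehicle (median 1.77). With SB525334, 2 were higher than with vehicle, against 5.81% of all genes. Krt6b ranged from 139 to 5011 CPM (median 799.6) with SB525334, 0.882 to 3709 CPM (median 97.6) with vehicle and 0.934 to 18.7 CPM (median 1.68) with PBS. The SB525334 values spread widely and were all above PBS (8.28 ± 1.45, adjusted p = 1.78e-06). Krt16, its partner in wounded epidermis, was at 262 to 3404 CPM (median 928) against 25.4 to 53.2 CPM (median 35.3), 4.73 ± 0.76 above PBS (adjusted p = 2.2e-07). Serpinb3a, a protease inhibitor of inflamed epidermis, rose 35-fold against PBS and by 2.37 ± 0.54 against vehicle (adjusted p = 0.00135). Krt17, also expressed in hair follicles, fell by 0.58 on the log2 scale with all PBS libraries and stood at -0.09 ± 0.19 without the hair-rich ones (adjusted p = 0.748).

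Counts of hair, pigment, cell cycle and antigen presentation genes depended on the 3 hair-rich PBS libraries, and also on the fit. All 44 tested hair keratin and shaft genes were lower than PBS with SB525334 (median -8.26), and 21 without the hair-rich libraries (median -3.81). With all libraries kept, 27 were lower in a fit of only the groups compared and 22 with limma voom. All 10 melanocyte genes were lower, 6 with limma voom and 1 without the hair-rich libraries. Of 37 cell cycle genes, 16 were lower and none higher (33 lower on plate 1 alone and none on plate 2). In a fit of only the groups compared 2 were lower, and 5 were with limma-trend. Without the hair-rich libraries edgeR called none in either direction (1 at an unadjusted p under 0.05, median -0.18). Mki67, a marker of proliferating cells, was at 200.0 to 550.4 CPM (median 276) against 195 to 707 CPM (median 565) and moved from -0.62 ± 0.25 (adjusted p = 0.0285) to -0.25 ± 0.28 (adjusted p = 0.487). Of 23 antigen presentation genes, 15 were higher and none lower. It was 6 higher in a fit of only the groups compared and 0 on plate 2 alone. Without the hair-rich libraries edgeR called none, also at an unadjusted p under 0.05 (median 0.10). At day 14, 35 of 37 cell cycle genes were above PBS.

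Muscle and fat genes also parted from PBS. Of 25 skeletal muscle genes, 24 were higher and none lower than PBS with SB525334 (median 2.41; 23 without the hair-rich libraries and 9 on plate 1 alone), 24 with vehicle (median 2.63), and none was called between SB525334 and vehicle by edgeR, DESeq2, limma voom or limma-trend, nor at an unadjusted p under 0.05 in edgeR. No gene of this list was free of overlap between SB525334 and PBS. Of all genes 5.49% lay wholly above PBS and 3.21% wholly below. The summed level was 4916 to 39280 CPM with SB525334 against the low PBS range given above, and the part played by muscle taken with the biopsy was not tested. Neb, nebulin of the thin filament, was at 391 to 3275 CPM (median 1785) against 9.01 to 706 CPM (median 233) (2.62 ± 0.57, adjusted p = 7.79e-05). Of 20 muscle regeneration genes, 18 were higher and none lower (17 higher without the hair-rich libraries and 10 on plate 1 alone). In 10 every SB525334 library lay above every PBS library, against 5.49% of all genes. Pax7, the transcription factor of muscle stem cells, lay at 0.512 to 1.69 CPM (median 1.01) against 0 to 0.227 CPM (median 0.105) with no overlap, a rise of 3.20 ± 0.59 (adjusted p = 4.06e-06). Chrna1, a subunit of the acetylcholine receptor, rose 4.96-fold, also without overlap.

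Of 23 tested adipocyte genes, 2 were higher and 20 lower than PBS with SB525334 (median -0.91), and 1 and 11 with vehicle (median -0.60). With SB525334, 4 were lower than with vehicle, against 6.02% of all genes. Leaving out the hair-rich libraries gave 1 higher and 20 lower (median -1.15), and on plate 1 alone 8 were lower. Adrb3, the beta-3 adrenergic receptor of fat cells, was at 1.9 to 3.95 CPM (median 2.43) with SB525334, 2.07 to 13.3 CPM (median 5.08) with vehicle and 9.38 to 29.8 CPM (median 17.6) with PBS. The SB525334 libraries were all below PBS (-2.77 ± 0.27, adjusted p = 7.5e-14), and lower than with vehicle, at -1.16 ± 0.27 (adjusted p = 0.00203). Adipoq, adiponectin, fell 2.64-fold against PBS, with 8 of 9 libraries below the lowest PBS library.

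Some genes of the DNA damage response were still raised. The transcription factor p53 induces them after DNA breaks. Of 36 targets, 14 were higher and 1 lower than PBS with SB525334 (median 0.07), against 23.9% and 28.6% of all genes. Without the hair-rich libraries it was 15 and 4, and with vehicle 14 and 2. At day 14, 27 were higher and 3 lower (median 0.57), against 31.5% and 28.1% of all genes. Ccng1, cyclin G1, was at 174 to 308 CPM (median 260.0) against 83.8 to 166 CPM (median 146), without overlap (0.90 ± 0.14, adjusted p = 5.63e-08). Pmaip1, a promoter of apoptosis, rose by 1.17 ± 0.13 (adjusted p = 1.38e-11), beside 2.11 ± 0.14 at day 14. Cdkn1a, the p21 inhibitor of the cell cycle, stood 0.18 ± 0.08 from PBS (adjusted p = 0.0609), and 0.29 ± 0.10 (adjusted p = 0.0117) without the hair-rich libraries. Cdkn2a, which encodes p16 and p19 and marks senescent cells, lay at 1.33 to 4.13 CPM (median 2.52) with SB525334, 0.235 to 5.29 CPM (median 2.67) with vehicle and 0.046 to 0.309 CPM (median 0.153) with PBS. It was higher in all 9 SB525334 libraries than in any PBS library, 16.1-fold (4.01 ± 0.47, adjusted p = 6.29e-11), and -0.09 ± 0.38 from vehicle (adjusted p = 0.918). Cdkn2b, encoding p15 and a known TGF-β target, rose by 0.86 ± 0.15 (adjusted p = 1.45e-06) and was 0.51 ± 0.15 above vehicle (adjusted p = 0.0171, and 0.056 in a fit of only these groups). As a list, the 7 INK4 and CIP inhibitors of the cell cycle, the family of Cdkn2a and Cdkn2b, did not rise together. Against PBS 2 were higher and 2 lower with SB525334 (3 and 2 without the hair-rich libraries).

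Among all genes the smallest p values of those lower than PBS belonged to Mme, Wnt5b, Arhgap20, Ntrk3 and Pard3b, and of those higher to Vcam1, Cacna1d, Npl, Pla2g7 and Ccdc9b. Mme, neprilysin, a surface peptidase of dermal fibroblasts, lay at 20.1 to 28.9 CPM (median 25.2) with SB525334 and 55.2 to 81.1 CPM (median 62.3) with PBS, -1.36 ± 0.10 (adjusted p = 6.99e-18). Pla2g7, a phospholipase of macrophages, was at 62.2 to 113 CPM (median 79.3) against 19.7 to 31.8 CPM (median 24.4), 1.68 ± 0.15 (adjusted p = 8.56e-16). Neither gene's groups overlapped, and without the hair-rich libraries the changes were -1.40 ± 0.12 and 1.56 ± 0.17. Against vehicle, the genes with the smallest p were Krt2, Dsp, Ide, Ctnnbip1 and Fam160a1 above, and Pdgfrl, Rnf112, Tnmd, Rab23 and Angptl1 below. Dsp, desmoplakin of cell junctions, was 0.54 ± 0.08 above vehicle (adjusted p = 1.14e-05), with SB525334 libraries at 6079 to 8461 CPM (median 6977), vehicle at 4261 to 5713 CPM (median 4862) and PBS at 4678 to 7225 CPM (median 6275). Angptl1, an angiopoietin-like secreted protein, was at 0.931 to 7.64 CPM (median 3.17) with SB525334, 11.5 to 29.9 CPM (median 18.1) with vehicle and 8.7 to 82.8 CPM (median 30.6) with PBS. It was below vehicle in every library (-2.57 ± 0.37, adjusted p = 2.97e-06) while vehicle stood -0.73 ± 0.36 from PBS (adjusted p = 0.0995). Tnmd, tenomodulin, was also below vehicle, -1.47 ± 0.21 against vehicle (adjusted p = 2.65e-06) and 0.04 ± 0.21 for vehicle against PBS (adjusted p = 0.892).

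The comparison was also made at day 28 in other libraries, where fewer genes were called. PBS skin of day 28 also held libraries above the hair-rich threshold of 10000 CPM, replicates 2 (51070 CPM) and 3 (22010 CPM). They were kept in the day 28 values given here. There 4532 genes differed between SB525334 and PBS (28.6%), 2262 higher (14.3%) and 2270 lower (14.3%). The difference between the days was called for 60 genes (0.379%), 27 higher (0.171%) and 33 lower (0.209%) at day 28 than at day 21, and this count changed most with the processing. Pi16 was at -0.99 ± 0.34 against PBS at day 28 and at -2.81 ± 0.33 at day 21, a difference of 1.83 ± 0.47 (adjusted p = 0.0479). Fap differed by 0.87 ± 0.22 (adjusted p = 0.0479), Pdgfrl by 1.05 ± 0.27 (adjusted p = 0.0479) and Ltbp3 by 0.78 ± 0.18 (adjusted p = 0.0422), each nearer to PBS at day 28. Krt16 went from 4.73 ± 0.76 at day 21 to 0.94 ± 0.70 at day 28, a difference of -3.79 ± 0.96 (adjusted p = 0.0479). Col1a1 stood 0.69 ± 0.28 above PBS at day 28 (adjusted p = 0.0502), with a difference between the days of 0.67 ± 0.38 (adjusted p = 0.487). Timp1 (3.07 ± 0.35), Cdkn2a (4.22 ± 0.50) and Cxcl5 (6.92 ± 0.97) remained called above PBS at day 28.

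**Figure D5:**
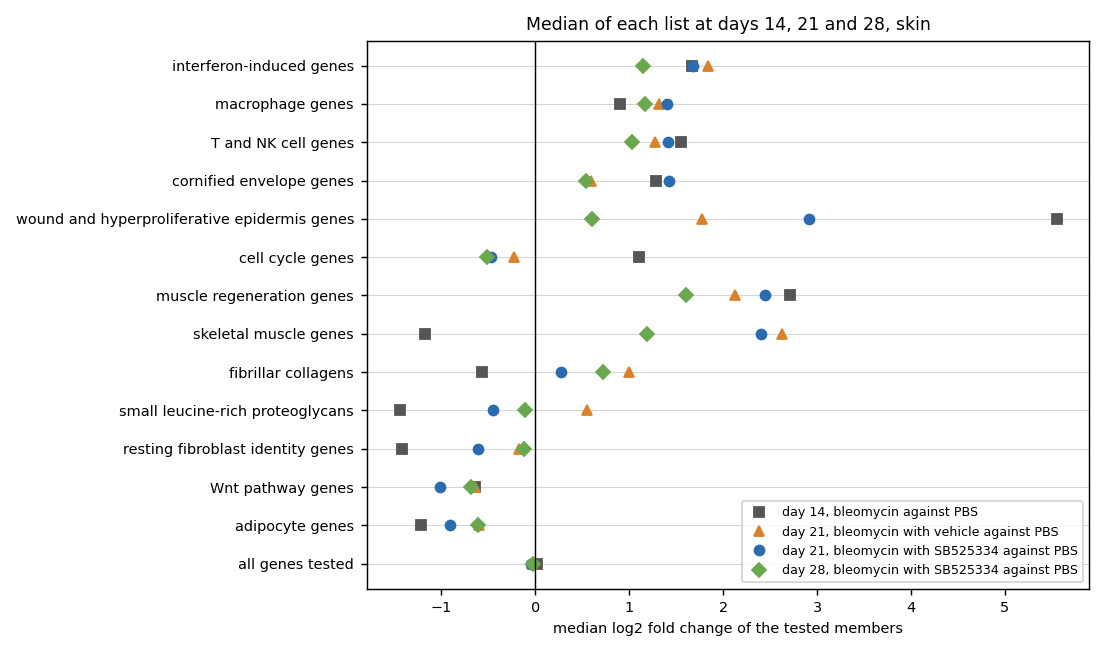
Median log2 fold change of the tested members of 13 gene lists and of all genes (horizontal axis) at day 14, at day 21 with vehicle and with SB525334, and at day 28 with SB525334, each against the PBS skin of its day. Wound epidermis genes stand at 5.55, 1.77, 2.91 and 0.60 in that order, and interferon genes at 1.67, 1.84, 1.67 and 1.15; the comparisons of day 21 share their PBS libraries.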

How the data were processed

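The authors deposited RSEM expected counts of 22095 genes per library (GRCm38, RSEM and edgeR are named in the submitters' processing notes, with no versions) and a log2 table of 16160 genes, log2 CPM corrected for plate by the authors, per the labels and file header. 21852 genes were paired with a symbol. Expected counts were rounded. edgeR 4.0.16 in R 4.3.3 was fitted to all 93 skin libraries in 12 groups with sequencing plate as a term, after filterByExpr and TMM scaling, with the quasi-likelihood F test and Benjamini-Hochberg adjustment over 15825 genes. SE is the log2 fold change divided by the square root of F. Printed CPM use TMM library sizes, except those of Sftpc, which use unscaled totals. The members, 51 gene lists and tests were chosen with earlier results of these data known. Gene positions are GENCODE vM21. Named genes were those with the largest changes, the smallest p per direction and contrast, preset anchors, and up to 5 per list by p; a few of them are not reported here. Other settings (DESeq2 1.42.0, limma 3.58.1 voom and trend on the log2 table, other scaling, filters, plate terms, a replicate block and left-out libraries) were run. The 2 settings without hair-rich libraries were added after the data were seen. Replicate numbers are in the labels, which do not say what they share. Of the 85 library pairs compared within groups, 0 held identical values. Totals of 15487286 to 43070659 counts per library set the counting precision. On simulated counts for this comparison (15721 genes), the fit recovered 79 of 100 simulated 2-fold changes and 61 of 100 simulated 1.5-fold changes, and made 12 false calls. All groups otherwise shared a common mean per gene there, and no library was hair-rich. In the real comparison 52.5% of genes were called, so these figures need not hold for it.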

Additional observations from a re-analysis of the deposited data

Results flagged for a closer look

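A library far from the others of its group, by Dixon's test at the 95% level on log2 values, was found in 13 of 218 groups of values read, where chance gives about 1 in 20. With SB525334, replicate 1 was lowest for Neb (391 CPM), for Tnc (285 CPM) and for the summed skeletal muscle genes (4916 CPM, others 16960 to 39280). Replicate 4 was lowest for Cdkn2b (9.34 CPM), Lrrc32 (19.8 CPM) and the summed Wnt pathway genes (355.8 CPM). Replicate 8 was lowest for Ltbp3 (19.5 CPM), and replicate 7 was highest for the summed hair keratin and shaft genes (718.2 CPM). Among the PBS libraries, hair-rich replicate 1 was lowest for Neb (9.01 CPM) and for the summed skeletal muscle genes (47.95 CPM), hair-rich replicate 2 was lowest for Gsta4 (1.92 CPM), replicate 8 was highest for Mme (81.1 CPM) and replicate 5 was lowest for Ntrk3 (14.4 CPM).

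The SB525334-against-PBS effect was called different between day 28 and day 21 for 7 of the genes named here. The count over all genes, 60, ranged from 13 to 447 in other settings, where these 7 genes were not followed. The differences, day 28 minus day 21 on the log2 scale, were 0.87 for Fap, 0.78 for Ltbp3, 1.05 for Pdgfrl, 1.83 for Pi16 and 2.43 for Rnf112, all lower than PBS at day 21. They were -3.79 for Krt16 and -0.78 for Pmaip1, both higher than PBS at day 21.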

How the results depend on the processing

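The number of genes called between SB525334 and PBS at day 21 stayed within 1.5 times of 8312 in every alternative: 8299 with RLE size factors, 8415 with no filter, 7481 with no plate term, 8316 with 4 plate sections, 6328 with only the groups compared, 7757 with limma voom, 7641 with limma-trend, 8442 with DESeq2, 6724 and 6067 on plates 1 and 2 alone, 6462 without the hair-rich PBS libraries and 7455 without all hair-rich skin libraries. Leaving out 1 library at a time gave 7533 to 8860. The count of the day difference, 60, became 20 with no filter, 13 with no plate term, 198 with limma voom, 22 with limma-trend, 179 with DESeq2, 447 without the hair-rich PBS libraries of day 21 and 92 without all hair-rich skin libraries. The setting that gave 447 kept the hair-rich PBS libraries of day 28, and the setting that gave 92 left them out. Vehicle against PBS, 6518, became 3541 with only the groups compared and 3875 without the hair-rich PBS libraries. SB525334 against PBS at day 28, 4532, became 3004 with only the groups compared, where fewer libraries set the spread. SB525334 against vehicle, 1872, became 3440 with limma voom and 3226 without all hair-rich skin libraries. Other causes were not tested. On plate 1 alone, with fewer libraries, the calls against PBS of Adipoq, Bgn, Col24a1, Dcn, Fasn, Postn, Tgfbr1 and Tnc missed the threshold in the same direction. Smad7 in vehicle against PBS turned to 0.0302 without all hair-rich skin libraries. Same-numbered libraries of the main groups correlated over 0.1 in 4 of 8 pairs (range -0.0706 to 0.257) and 4 correlated best with their own number. Whether a number stands for something shared was not tested. The labels do not say what it is, and the numbers were not taken as pairs. With a replicate block the count was 7984.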

Other observations

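Some groups outside the comparisons above also held called genes. Of 23 NRF2 targets, genes of the oxidant response, 8 were higher and 6 lower than PBS with SB525334, against 23.9% and 28.6% of all genes. Against vehicle 4 were higher, beside 5.81% of all genes. Without the hair-rich PBS libraries 8 were higher and 2 lower. Gsta4, a glutathione transferase, was at 2.71 to 131 CPM (median 14.2) against 1.92 to 3.34 CPM (median 2.67) and rose 8.46-fold (3.08 ± 0.53, adjusted p = 1.07e-06), with 7 of 9 libraries above the highest PBS library. Of 23 lipid synthesis genes, 1 was higher and 8 lower than PBS (none and 10 without the hair-rich libraries), beside the same 23.9% and 28.6% of all genes. With SB525334, 6 were higher than with vehicle, against 5.81% of all genes. Fasn, fatty acid synthase, was at 518 to 1319.7 CPM (median 631) against 714 to 2853 CPM (median 1136), with overlap (-0.96 ± 0.23, adjusted p = 0.000383).

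Of 16 Schwann cell and nerve genes, 9 were higher and 3 lower than PBS (7 and 4 without the hair-rich libraries), against 23.9% and 28.6% of all genes. Rgs5, a gene of pericytes, was at 104 to 162 CPM (median 129) against 55.5 to 74.8 CPM (median 65.5), without overlap (0.97 ± 0.10, adjusted p = 5.1e-13), while of the 17 smooth muscle and pericyte genes 3 were higher and 6 lower (2 and 8 without the hair-rich libraries). Jchain, which joins antibody subunits in plasma cells, was at 2.19 to 9.48 CPM (median 3.84) against 0.227 to 1 CPM (median 0.35), every SB525334 library above every PBS library (3.25 ± 0.56, adjusted p = 1.06e-06), and 3 of 9 tested B and plasma cell genes were higher and none lower, against 2 higher and 3 lower without the hair-rich libraries. Of 35 ribosomal protein genes, edgeR called none with all libraries (1 at an unadjusted p under 0.05, 1 called by DESeq2, 11 by limma voom and none by limma-trend), but called 10 higher without the hair-rich PBS libraries and 22 higher without all hair-rich skin libraries.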
